A study of Homo sapiens with 4 samples.

Results

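Aminoacyl-tRNA synthetases are the enzymes that load each transfer RNA with its amino acid. The 38 genes described here were chosen by name, out of 58735 annotated genes: 18 enzymes of the cytosol, 16 enzymes of mitochondria, GARS and KARS, which serve both compartments, and AIMP1 and AIMP2, scaffold proteins of the multisynthetase complex. They have 479 of the 206601 annotated transcripts.

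The cells were H1299, a human cell line established from a non-small-cell lung carcinoma. They were exposed for 48 h to 0.5 mM methylparaben, a preservative of foods and cosmetics (2 libraries), or kept as ethanol controls (2 libraries). The labels give neither an ethanol concentration nor a time for the controls. Nothing states that the libraries of a group were separate cultures, and a p-value here covers the spread among these libraries alone, which may be technical.

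In human cells most cytosolic synthetases and their mitochondrial counterparts come from separate nuclear genes, the mitochondrial one usually with a name ending in 2. Several cytosolic enzymes are held together in the multisynthetase complex. When charged tRNA runs short, the kinase GCN2 phosphorylates the initiation factor eIF2, the transcription factor ATF4 is then translated, and ATF4 binds C/EBP-ATF response elements in target genes, several synthetase genes among them. Other eIF2 kinases, such as the endoplasmic reticulum (ER) kinase PERK, lead to ATF4 as well.

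Library totals were 3760982 and 2068486 reads with methylparaben and 2368658 and 2182058 reads with ethanol. Levels are CPM, counts scaled to the library total after TMM scaling. A library with no read for a gene allows up to 0.798 and 1.45 CPM with methylparaben and 1.27 and 1.37 CPM with ethanol, taking 3 counts as the limit, which covers counting error only. Of 22 cell type markers, 15 had no read in any library, among them EPCAM, CDH1, the lung genes NKX2-1 and SFTPC, and the blood gene PTPRC. Having no read does not show that their RNA was absent. The epithelial keratin KRT8 was read at 8.43 and 11.5 CPM with methylparaben and 10.2 and 6.06 CPM with ethanol. The mesenchymal receptor kinase AXL was read at 598.9 and 534.3 CPM with methylparaben and 1252.9 and 1767.2 CPM with ethanol. AXL and the mesenchymal filament gene VIM both fell, by 1.41 ± 0.20 and 1.19 ± 0.25 on the log2 scale (± SE; edgeR, adjusted p = 0.000733 and 0.00565), and their part in the results below was not tested. The other mesenchymal markers, FN1 and CDH2, had too few reads for a test. Of the reads of VIM 77.7% were on transcripts annotated for nonsense-mediated decay and 0.0% on coding ones.

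No source states how reads were counted. Of the 206601 annotated transcripts, 70749 have no base that they alone hold, whichever the strand, and 0 of these have a read. The counts are therefore read here as lying on single-transcript bases, an inference on which the statements on introns, coding transcripts and levels per kilobase rest. Of the 479 synthetase transcripts, 247 have such a base and 125 were read. On this reading, what a count stands for differs between genes: for some it is the coding messenger RNA, for others an intron that one noncoding transcript keeps.

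With methylparaben 9 synthetase genes rose and 2 fell, of the 22 that had enough reads for a test. All 9 that rose encode cytosolic enzymes or the dual enzyme GARS. The test was edgeR's quasi-likelihood test, in its two-sided form, adjusted over 8055 genes by the Benjamini-Hochberg method, and a gene is called at an adjusted p under 0.05. Over all tested genes 36.9% were called, 18.5% higher and 18.4% lower, so a call was common in this comparison. The median log2 fold change, methylparaben over ethanol, was 0.79 for the 22 synthetase genes and 0.0288 for all tested genes. In bulk samples, fewer cells of a type and less RNA per cell cannot be told apart. The other 16 genes did not reach the read minimum.

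**Figure D1:**
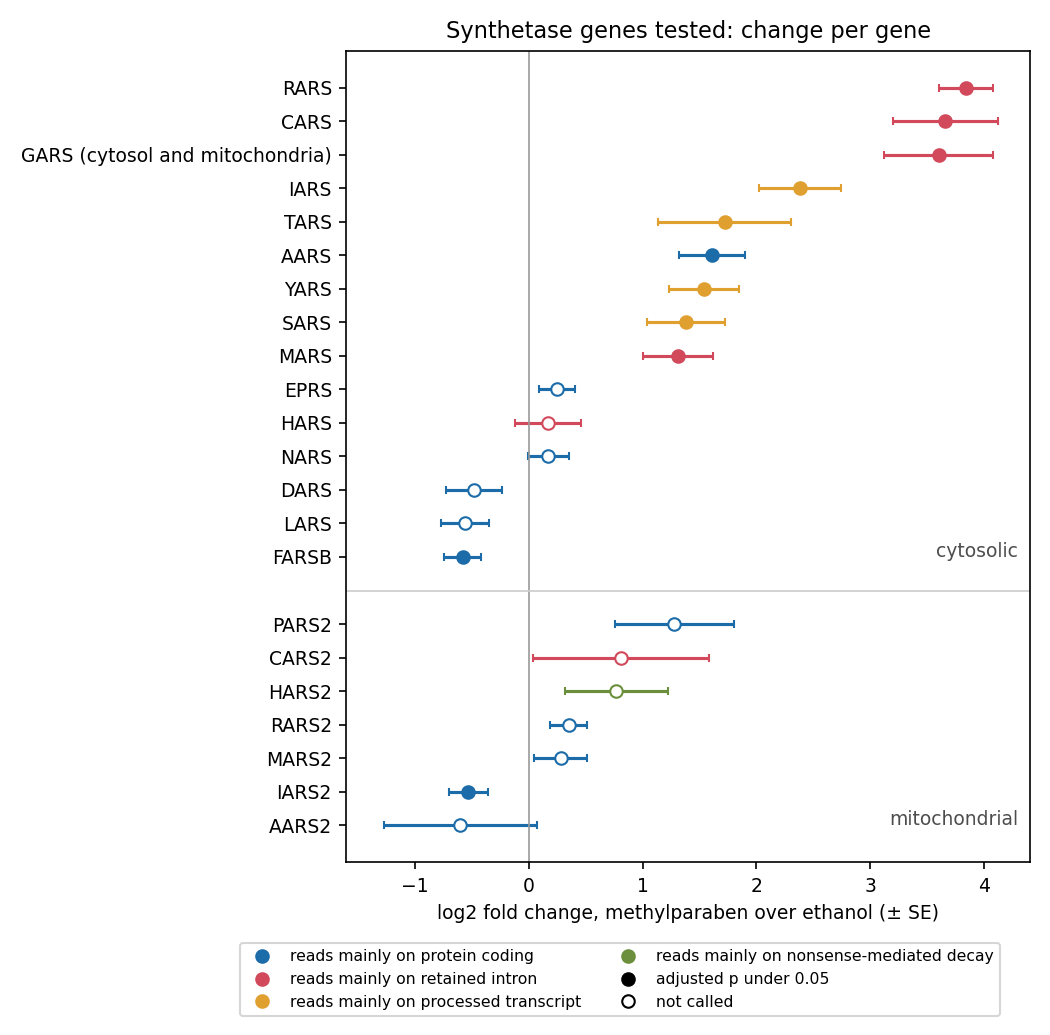
Log2 fold change of each of the 22 tested genes, methylparaben over ethanol, with its standard error on the x axis and genes down the page, cytosolic above mitochondrial. Colour gives the type of transcript that holds most of the gene's reads, and filled points are called. RARS, CARS and GARS lie furthest to the right, between 3.60 and 3.84, and FARSB and IARS2 are the called genes below 0.

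RARS, the arginyl-tRNA synthetase (chromosome 5, 168486445 to 168519299, GRCh38), had 214.1 and 178.5 CPM with methylparaben, against 14.9 and 12.6 CPM with ethanol. Both treated libraries stood far above both controls. The log2 fold change was 3.84 ± 0.24 (edgeR, adjusted p = 2.42e-05).

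CARS, the cysteinyl-tRNA synthetase (chromosome 11, 3000922 to 3057613), had 26.9 and 34.0 CPM with methylparaben, against 2.98 and 1.73 CPM with ethanol, a log2 fold change of 3.66 ± 0.46 (edgeR, adjusted p = 0.000422). GARS, the glycyl-tRNA synthetase of cytosol and mitochondria (chromosome 7, 30594681 to 30634033), had 56.0 and 76.4 CPM with methylparaben, against 2.13 and 8.66 CPM with ethanol. In both genes the treated libraries were far above the controls, but the controls of GARS differed among themselves. CARS had 7 and 4 reads with ethanol and GARS 5 and 20. Both genes passed the read minimum only through methylparaben, so their rise is not independent of their being tested. GARS rose by 3.60 ± 0.48 (edgeR, adjusted p = 0.000593), and by 2.90 without ethanol replicate 1 and 4.94 without ethanol replicate 2.

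IARS, the isoleucyl-tRNA synthetase (chromosome 9, 92210207 to 92293756), had 48.4 and 50.2 CPM with methylparaben, against 12.3 and 6.49 CPM with ethanol, and rose by 2.38 ± 0.36 (edgeR, adjusted p = 0.00105). AARS, the alanyl-tRNA synthetase (chromosome 16, 70252295 to 70289543), had 423.9 and 835.2 CPM with methylparaben, against 233.9 and 177.5 CPM with ethanol. One treated library of AARS stood well above the other, and both stood above the controls. AARS rose by 1.61 ± 0.29 (edgeR, adjusted p = 0.00268), and by 1.08 to 2.01 as each library was left out.

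YARS, the tyrosyl-tRNA synthetase, had 41.6 and 47.6 CPM with methylparaben, against 13.2 and 17.3 CPM with ethanol, and rose by 1.54 ± 0.31 (edgeR, adjusted p = 0.00416). MARS, the methionyl-tRNA synthetase, had 40.5 and 34.0 CPM with methylparaben, against 13.6 and 16.4 CPM with ethanol, and rose by 1.31 ± 0.31 (edgeR, adjusted p = 0.00954). In neither gene did the groups overlap, and each pair of replicates lay close together. In SARS and TARS the controls were less even. SARS, the seryl-tRNA synthetase, had 67.7 and 52.3 CPM with methylparaben, against 15.7 and 30.7 CPM with ethanol, and rose by 1.38 ± 0.34 (edgeR, adjusted p = 0.0114). TARS, the threonyl-tRNA synthetase, had 12.2 and 12 CPM with methylparaben, against 1.70 and 5.63 CPM with ethanol, and rose by 1.72 ± 0.58 (edgeR, adjusted p = 0.0417). TARS was the least read of the 9, with 17 reads in the ethanol libraries together. These were 4 and 13 reads, so TARS also passed the read minimum only through methylparaben. As each library was left out, SARS ranged from 0.95 to 1.95 and TARS from 1.08 to 2.81. TARS was not called without methylparaben replicate 1 (edgeR, adjusted p = 0.0794) or by DESeq2 (adjusted p = 0.108). Without ethanol replicate 1, MARS, SARS and TARS lost their calls (edgeR, adjusted p = 0.0661, 0.0890 and 0.234), and 6 synthetase genes and 851 of 9003 tested genes were higher.

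FARSB, the beta subunit of the phenylalanyl-tRNA synthetase (chromosome 2, 222570536 to 222656337), had 242.4 and 240.7 CPM with methylparaben, against 337.7 and 383.5 CPM with ethanol. It was lower by a small but even margin, and fell by 0.58 ± 0.16 (edgeR, adjusted p = 0.0211). Its partner FARSA, the alpha subunit, had no read in any library, with 603 single-transcript bases, which does not show that its RNA was absent. Without ethanol replicate 1 or 2 the call of FARSB was lost (edgeR, adjusted p = 0.0665 and 0.211), as it was with the replicate number as a block (edgeR, adjusted p = 0.0604).

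The other 5 tested cytosolic genes were not called. LARS, the leucyl-tRNA synthetase, had 86.8 and 75.9 CPM with methylparaben, against 109.7 and 130.7 CPM with ethanol, at -0.56 ± 0.21 (edgeR, adjusted p = 0.0569). DARS, the aspartyl-tRNA synthetase, was at -0.48 ± 0.25, also with all treated values below all control values, 38.4 and 36.1 CPM against 48.5 and 55.4 CPM. EPRS, which charges both glutamate and proline tRNA, was at 0.25 ± 0.16, with 726.5 and 645.8 CPM with methylparaben and 592.0 and 566.1 CPM with ethanol. NARS, for asparagine, and HARS, for histidine, were each at 0.17, with SE of 0.18 and 0.29, and their groups overlapped.

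**Figure D2:**
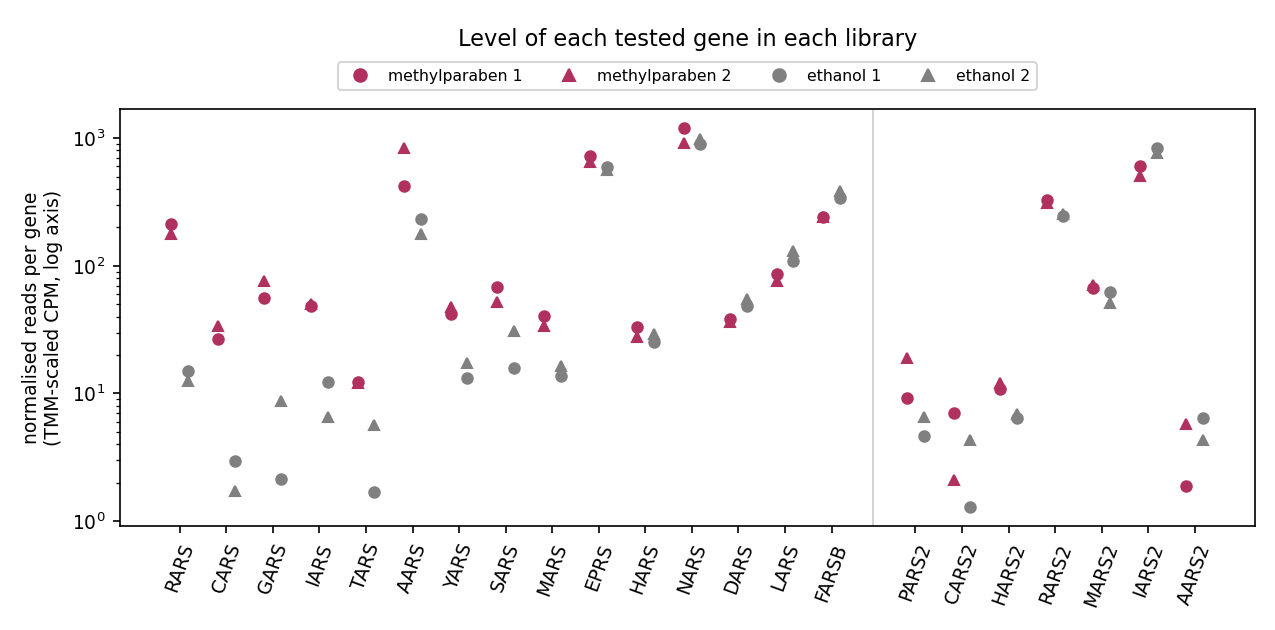
Level of each of the 22 tested genes in each library, as TMM-scaled CPM on a log axis, with methylparaben libraries to the left of ethanol libraries within each gene and cytosolic genes left of the grey line. RARS shows the widest gap, 214.1 and 178.5 CPM against 14.9 and 12.6 CPM, while the most abundant counts, those of NARS, overlap between the groups.

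Of the 16 mitochondrial synthetase genes 7 were tested, and edgeR called 0 higher and 1 lower. At an unadjusted p under 0.05 PARS2 alone, 1 gene, was higher by edgeR and 0 by DESeq2. After adjustment DESeq2 also called 0 higher and 1 lower. IARS2, the mitochondrial isoleucyl-tRNA synthetase (chromosome 1, 220094102 to 220148041), had 604.3 and 500.8 CPM with methylparaben, against 833.5 and 765.2 CPM with ethanol. It fell by 0.53 ± 0.17 (edgeR, adjusted p = 0.0333). That call was lost without methylparaben replicate 2, ethanol replicate 1 or ethanol replicate 2 (edgeR, adjusted p = 0.140, 0.191 and 0.119) and with the replicate number as a block (edgeR, adjusted p = 0.0704).

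RARS2, for arginine, had 328.4 and 309.3 CPM with methylparaben, against 246.7 and 253.6 CPM with ethanol, at 0.35 ± 0.16 (edgeR, adjusted p = 0.113). MARS2, for methionine, had 67.2 and 71.2 CPM with methylparaben, against 62.5 and 51.1 CPM with ethanol, at 0.28 ± 0.23. In both the treated values lay above the control values by less than the test required. PARS2, for proline, had 9.25 and 18.8 CPM with methylparaben, against 4.68 and 6.49 CPM with ethanol, at 1.28 ± 0.52 (edgeR, adjusted p = 0.0792), and passed without methylparaben replicate 1 (adjusted p = 0.0149). HARS2, for histidine, had 10.9 and 12 CPM with methylparaben, against 6.38 and 6.93 CPM with ethanol, at 0.77 ± 0.45. CARS2, for cysteine, had 7.07 and 2.09 CPM with methylparaben, against 1.28 and 4.33 CPM with ethanol, at 0.81 ± 0.77, and AARS2, for alanine, was at -0.60 ± 0.67. The groups of CARS2 and of AARS2 overlapped, and these genes were read too little for a firm value.

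Set side by side, the cytosolic and dual enzymes had 9 higher and 1 lower of 15 tested, with a median log2 fold change of 1.38, and the mitochondrial enzymes 0 higher and 1 lower of 7, with a median of 0.35, where 18.5% of all tested genes were higher and 18.4% lower. Summed over a class, cytosolic and dual genes had 3268.3 and 3268.2 CPM with methylparaben, against 2321.1 and 2430.7 CPM with ethanol. The mitochondrial genes summed to 1035.6 and 931.5 CPM with methylparaben, against 1168.2 and 1100.2 CPM with ethanol. The cytosolic sum was higher and the mitochondrial sum lower in both treated libraries, but the lower mitochondrial sum rests on IARS2. Without IARS2 the mitochondrial genes summed to 431.3 and 430.7 CPM with methylparaben, against 334.7 and 335.0 CPM with ethanol, and 5 of the 7 tested mitochondrial genes had a log2 fold change above 0. No test was run between the classes, whose members are not replicates. Among pairs with both genes tested, RARS and IARS were called higher with RARS2 not called and IARS2 called lower, AARS, CARS and MARS were called higher with their mitochondrial partners not called, and neither HARS nor HARS2 was called.

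Within the cytosolic and dual class, enzymes of the multisynthetase complex had 3 higher of 6 tested (RARS, IARS and MARS), and enzymes outside it 6 higher and 1 lower of 9. By catalytic fold, class I enzymes had 5 higher of 7 tested and class II enzymes 4 higher and 1 lower of 8, with EPRS, which has both folds, counted in class I. The same 18.5% higher and 18.4% lower over all tested genes stand beside these counts.

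The 16 genes without a test had few or no reads. FARSA, VARS and FARS2 had 0 reads in all libraries, which does not show that their RNA was absent. WARS, the tryptophanyl-tRNA synthetase, had 23 reads with methylparaben and 3 with ethanol, a depth-scaled ratio of 5.98 with an exact 95% interval of 1.81 to 31.1. KARS had 20 and 5 reads in the same order, a ratio of 3.12 (1.14 to 10.6), and the mitochondrial TARS2 had 17 and 4, a ratio of 3.32 (1.08 to 13.6). The intervals of these 3 ratios, which cover counting error only, lay above 1. YARS2 had 5 reads with methylparaben and 14 with ethanol, a ratio of 0.279 (0.0786 to 0.819), and VARS2 had 11 and 5, a ratio of 1.72 (0.550 to 6.31). LARS2 had 1 read with methylparaben and 8 with ethanol, NARS2 had 5 and 3, and QARS had 3 and 3. EARS2, SARS2, WARS2, AIMP1 and AIMP2 had at most 5 reads in either group. The scaffold genes AIMP1 and AIMP2 could therefore not be compared.

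Each gene's reads were next split by the annotated type of the transcript that holds them. Of the 9 that rose, 8 were read mainly on noncoding transcripts, and AARS was the exception, with 100% of its 4114 reads on the coding transcript AARS-201. RARS, CARS, GARS and MARS were read mainly on transcripts annotated as retained introns, which held 99.0%, 88.6%, 88.9% and 99.3% of their reads. IARS, SARS and YARS had 100% and TARS 40.0% of their reads on processed transcripts, transcripts annotated without an open reading frame. Both genes that fell, FARSB and IARS2, were read on coding transcripts, with 100% and 99.8% of their reads.

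**Figure D3:**
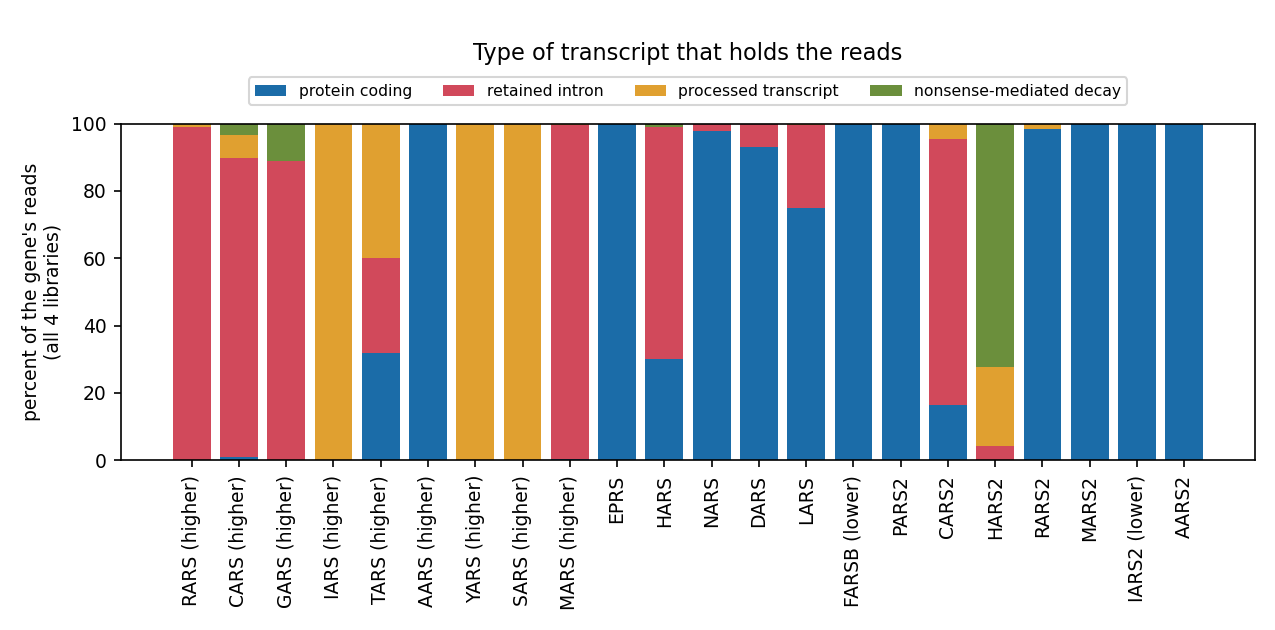
Percent of each tested gene's reads, over all 4 libraries, on each annotated type of transcript, in the same gene order as the plot of fold changes. Among the 9 genes marked as higher only AARS is a full bar of protein-coding reads, while 4 of the 11 genes that were not called are full bars and 7 of the 11 exceed 90%.

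Counted this way, the 11 tested genes read mainly on coding transcripts had 1 higher and 2 lower and a median log2 fold change of 0.17. Among all tested genes read mainly on coding transcripts 15.2% were higher and 23.7% lower, with a median of -0.12. The 11 tested genes read mainly on other types had 8 higher and 0 lower and a median of 1.54, and 0 were lower at an unadjusted p under 0.05 or by DESeq2. All 4 of them read mainly on processed transcripts were higher, where 21.6% of all such genes were higher, and so were 4 of 6 read mainly on retained introns, where 35.4% of all such genes were higher. Retained-intron transcripts held more of the whole library with methylparaben, 4.22% and 3.95% of reads, than with ethanol, 2.73% and 2.73%. Within the 38 genes they held 9.82% and 9.37% of reads with methylparaben and 2.83% and 3.31% with ethanol. How far this shift carried the calls of single genes was not tested. Type and class run together: 8 of the 9 higher cytosolic and dual genes were read mainly on noncoding transcripts, while 5 of the 7 tested mitochondrial genes were read mainly on coding ones. Among genes read mainly on coding transcripts, cytosolic and dual genes had 1 higher and 1 lower of 6, and mitochondrial genes 1 lower of 5.

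With retained-intron transcripts left out of the sums, 18 synthetase genes kept enough reads, and AARS, GARS, IARS, SARS and YARS, 5 in all, were higher, where 17.1% of all genes were higher, and FARSB and LARS were lower, where 17.9% of all genes were. This did not leave out intronic reads. The called transcripts IARS-211, YARS-209, SARS-204 and GARS-202 have 378, 994, 473 and 134 single-transcript bases, all intronic to coding transcripts. Of the 5 higher genes only AARS had reads on coding transcripts. With protein-coding transcripts only, 12 could be tested, and 3 were higher where 19.3% of all genes were, and 3 lower where 22.4% were. The 3 higher were AARS at 1.75, EPRS at 0.38 and the mitochondrial RARS2 at 0.48 (edgeR, adjusted p = 0.00111, 0.0454 and 0.0176). The 3 lower were LARS at -0.98, FARSB at -0.44 and IARS2 at -0.41 (edgeR, adjusted p = 0.00339, 0.0259 and 0.0406). For RARS, CARS, GARS, IARS, MARS, SARS and YARS the coding transcripts had 0 to 2 reads, so these counts do not give the level of their coding messenger RNA.

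Transcript by transcript, 35 of the 479 could be tested, and 14 were higher and 4 lower, against 20.3% higher and 19.1% lower among all 9167 tested transcripts. Of 12 synthetase retained-intron transcripts 8 were higher and 1 lower, with a median log2 fold change of 2.55, where 39.7% of all tested retained-intron transcripts were higher and 6.02% lower, with a median of 1.02. Of 9 processed transcripts 4 were higher, where 24.0% of all were, and of 2 transcripts annotated for nonsense-mediated decay 1 was higher, where 30.3% were. Of 12 coding transcripts 1 was higher and 3 lower, where 14.7% of all were higher and 25.4% lower. Among the 14 higher, CARS-212, GARS-202, GARS-208, GARS-209, IARS-211 and YARS-209 had at most 8 reads in either ethanol library. These passed the read minimum only through methylparaben, so their rise is not independent of their being tested. The same holds for RARS-202, RARS-203, SARS-203 and SARS-204, which did not reach the minimum in both ethanol libraries. Their ethanol reads were 12 and 8, 3 and 10, 9 and 20, and 7 and 22 in the same order.

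**Figure D4:**
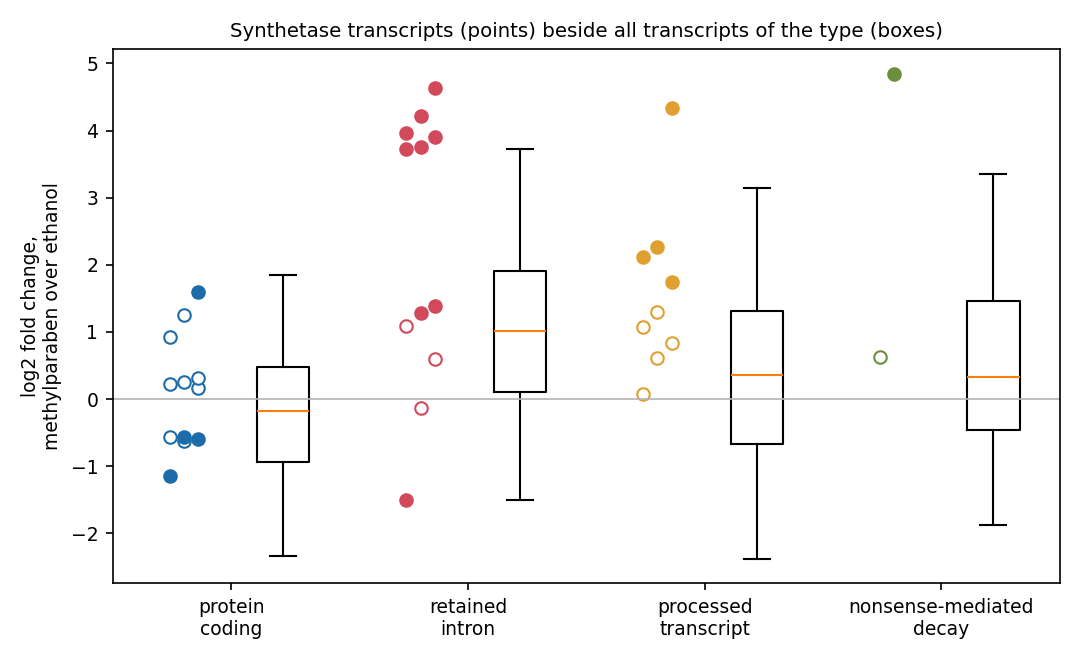
Log2 fold change, methylparaben over ethanol, of the 35 tested synthetase transcripts (points, filled where called) by type, beside the distribution of all tested transcripts of that type (box from the lower to the upper quartile with the median, whiskers to the 5th and 95th percentiles). The medians of the boxes are -0.183 for coding and 1.02 for retained-intron transcripts, and 6 retained-intron points lie between 3.73 and 4.64.

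The 3 retained-intron transcripts of RARS rose alike. RARS-209 had 92.2 and 88.3 CPM with methylparaben, against 8.66 and 4.86 CPM with ethanol, and rose by 3.73 ± 0.33 (edgeR, adjusted p = 6.78e-05). RARS-202 rose by 3.90 ± 0.35 and RARS-203 by 3.76 ± 0.51. All of their single-transcript bases, 340, 206 and 415, lie in introns of the coding transcripts. RARS-202 and RARS-203 passed the read minimum only through methylparaben, so their sharing a direction with RARS-209 is not independent of the filter. CARS-212 had 19.2 and 30.7 CPM with methylparaben, against 2.17 and 0.883 CPM with ethanol, and rose by 3.97 ± 0.57 (edgeR, adjusted p = 0.000773) on 2958 intronic bases.

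GARS-208 had 27.6 and 40.2 CPM with methylparaben, against 0 and 3.53 CPM with ethanol, and rose by 4.22 ± 0.73 (edgeR, adjusted p = 0.00184). GARS-209 was called higher as well, with 95 reads with methylparaben and 3 with ethanol, a depth-scaled ratio of 24.7 with an exact interval of 8.21 to 122.0. GARS-202, annotated for nonsense-mediated decay, had 41 reads with methylparaben and 1 with ethanol, a ratio of 32.0 (5.43 to 1294.6). All GARS transcripts tested thus rose, on 299, 282 and 134 bases that are intronic to its coding transcripts. They passed the read minimum only through methylparaben, so their common direction is not independent of the filter. Among those not tested, GARS-206 had 12 and 7 reads with methylparaben and 1 and 0 with ethanol. In the same order GARS-205 had 6 and 2 against 0 and 4, and GARS-207 had 5 and 6 against 1 and 7. IARS-211, a processed transcript at the 5′ end of IARS, had 30.9 and 23.3 CPM with methylparaben, against 0.433 and 2.21 CPM with ethanol, and rose by 4.33 ± 0.60 (edgeR, adjusted p = 0.000587). SARS-203 rose by 2.11 ± 0.45 (edgeR, adjusted p = 0.00525), with 789 of its 810 single-transcript bases in introns of coding transcripts.

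LARS had transcripts called in opposite directions. Its coding transcript LARS-202 had 51.0 and 46.5 CPM with methylparaben, against 98.8 and 116.6 CPM with ethanol, and fell by 1.14 ± 0.23 (edgeR, adjusted p = 0.00373). Its retained-intron transcript LARS-207 had 31.2 and 25.4 CPM with methylparaben, against 11.3 and 10.6 CPM with ethanol, and rose by 1.38 ± 0.35 (edgeR, adjusted p = 0.0121). The coding reads lie almost all in the 3′ untranslated region, on 858 of 868 bases, and those of LARS-207 on 1978 intronic bases. In the test of usage, which asks whether a transcript changed otherwise than the rest of its gene, LARS-207 stood 2.0 ± 0.37 log2 units above its gene (edgeR's diffSpliceDGE, adjusted p = 0.000452), a call lost only without ethanol replicate 2 (adjusted p = 0.0503) among the fits that left out 1 library.

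Usage differed for 3 of 25 synthetase transcripts, where 15.4% of 2830 did over all genes, so the synthetase share lay near the background. The coding LARS-202 was not among the 3, at -0.52 ± 0.27 relative to its gene (diffSpliceDGE, adjusted p = 0.311). IARS-211 stood 2.14 ± 0.61 above the rest of IARS (diffSpliceDGE, adjusted p = 0.0164), and by 0.76 and 1.67, with no call, without ethanol replicate 1 or methylparaben replicate 1 (adjusted p = 0.792 and 0.259), and by 3.76 without ethanol replicate 2. NARS-209, chosen here for its direction after its values were seen, was a retained-intron transcript that fell, with 8.67 and 4.76 CPM with methylparaben, against 20.8 and 19.0 CPM with ethanol. Its log2 fold change was -1.50 ± 0.44 (edgeR, adjusted p = 0.0209), and its usage relative to the rest of NARS was -1.65 ± 0.44 log2 units (diffSpliceDGE, adjusted p = 0.00977). That call of usage was lost without methylparaben replicate 2, ethanol replicate 1 or ethanol replicate 2 (diffSpliceDGE, adjusted p = 0.0702, 0.150 and 0.0601). The coding transcript NARS-201 was at 0.16 ± 0.18 (edgeR, adjusted p = 0.502) on 687 bases of the 3′ untranslated region.

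Of the 12 tested retained-intron transcripts, at least 7 run from an exon into the intron that follows, so that the transcript keeps the splice donor. The reference genome at the first such boundary is shown for 5 of them, to let the donors of transcripts that rose be set beside others. Each line gives 15 bases of exon and 15 of intron on the gene's strand, with the first bases of the intron in capitals.
RARS-209, chr5:168492833-168492862: atgggtatttctcagGTgatgtattgtcat
CARS-212, chr11:3018393-3018422: gagaagttcttgaatGTgagtccccagccc
LARS-207, chr5:146131004-146131033: ttttttgagtttcagGTaggctgttgattc
NARS-209, chr18:57607119-57607148: aaggcacctggctgaGTatgaagttgtctt
HARS-209, chr5:140678987-140679016: gaattctaccagtgtGTgagtgttgggaaa
The introns of all 5 begin with GT, the usual donor. The first 3 belong to transcripts that rose, NARS-209 fell, and HARS-209 was not called, at -0.13 ± 0.35. The search required 15 bases of exon and 15 of intron, the latter in no other transcript of the gene. It found no such boundary in RARS-202, RARS-203, GARS-208, GARS-209 and MARS-211. It cannot tell whether these keep a donor in bases shared with another transcript.

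Levels can be compared between genes only per length, here as CPM per kilobase of single-transcript bases on coding transcripts with at least 500 such bases, 17 in all. NARS-201 led, with 1713.6 and 1315.6 CPM per kilobase with methylparaben and 1290.6 and 1420.3 with ethanol. EPRS-201 followed with 548.3 and 494.1 with methylparaben and 456.8 and 437.2 with ethanol. In ethanol cells the next were IARS2 and RARS2, which did not overlap, and then LARS, FARSB and AARS, which did. In methylparaben cells RARS2, at 354.6 and 334.3 CPM per kilobase, lay above IARS2, at 236.7 and 199.7, while AARS, at 216.1 and 431.7, overlapped both. LARS, at 58.7 and 53.6, lay below FARSB, at 71.7 and 72.2. MARS2 came next in both groups, with 22.2 and 23.8 with methylparaben and 21.1 and 17.3 with ethanol. The remaining 9, HARS-208 and PARS2 among them, lay below 10 in every library, and NARS2-201, VARS-215 and WARS-232 had 0 reads.

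Promoter sequence was at hand for 32 of the 38 genes, as RefSeq windows on GRCh38.p14 from 250 bases before to 50 bases after the gene's start. The core of the C/EBP-ATF response element, searched as TGATGNAA on both strands, was found in 7 of 16 cytosolic and dual genes and in 1 of 14 mitochondrial genes. Of all 35116 RefSeq windows 3.62% hold it. Each is shown within 30 bases, on the gene's strand, with the core in capitals.
AARS, chr16:70289675-70289704: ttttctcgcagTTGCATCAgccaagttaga
CARS, chr11:3057407-3057436: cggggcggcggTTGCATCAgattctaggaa
GARS, chr7:30594834-30594863: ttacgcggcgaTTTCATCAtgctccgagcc
IARS, chr9:92293692-92293721: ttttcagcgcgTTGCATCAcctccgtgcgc
MARS, chr12:57488053-57488082: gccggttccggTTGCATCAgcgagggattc
TARS, chr5:33440956-33440985: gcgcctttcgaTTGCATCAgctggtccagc
NARS, chr18:57621804-57621833: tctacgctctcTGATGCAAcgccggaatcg
YARS2, chr12:32756076-32756105: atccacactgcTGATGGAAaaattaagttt
The first 6 genes, with the core on the opposite strand, all rose with methylparaben. NARS carries it on its own strand and was not called, and the mitochondrial YARS2 was not tested. In CARS, GARS, IARS, MARS, TARS and NARS the core lies between positions -33 and 22 from the start (for GARS the second RefSeq start), and in AARS it begins at -187.

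**Figure D5:**
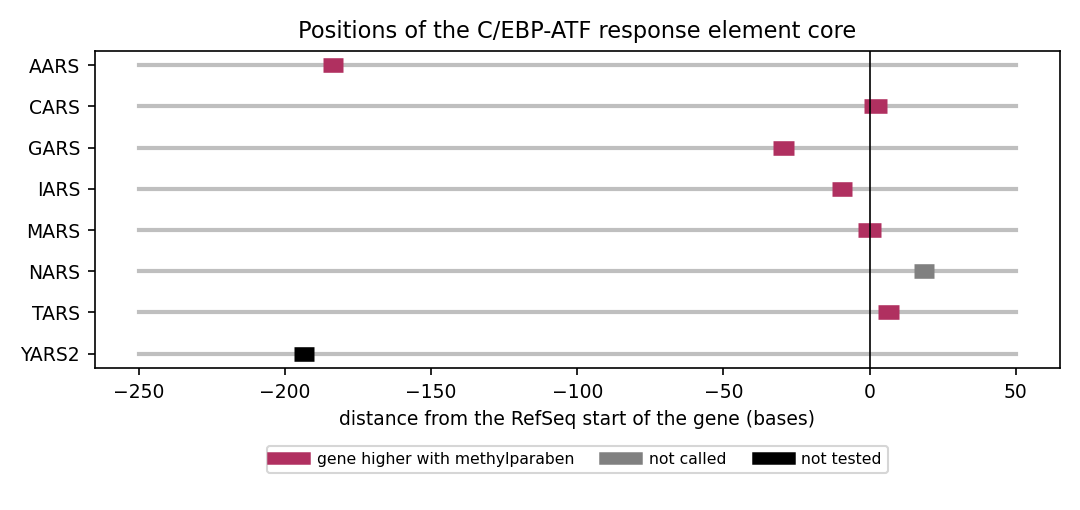
Position of the C/EBP-ATF response element core in the RefSeq window of each of the 8 genes that hold it, as distance in bases from the gene's start, coloured by the call of the gene. Of the cores, 6 lie between -33 and 22, and those of AARS and YARS2 begin at -187 and -197, and the 6 genes called higher are AARS, CARS, GARS, IARS, MARS and TARS.

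Of the tested synthetase genes with a window, 6 of 7 with the core were higher and 2 of 11 without it, RARS and SARS. Over all 5059 tested genes with a window, 24.6% of the 134 with the core were higher and 19.1% of those without it. A match is a description of letters and not a shown binding site, and YARS, LARS and DARS had no window here. The core was not found in the window of RARS, the gene with the largest fold change. The windows of AARS, which holds it, and of RARS, which does not, are shown from position -250 to -71 to let both be read, with the core in capitals.
AARS, chr16:70289577-70289756: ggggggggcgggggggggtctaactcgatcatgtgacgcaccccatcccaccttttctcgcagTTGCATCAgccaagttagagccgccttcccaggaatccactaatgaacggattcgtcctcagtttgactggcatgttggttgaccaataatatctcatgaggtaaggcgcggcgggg
RARS, chr5:168486221-168486400: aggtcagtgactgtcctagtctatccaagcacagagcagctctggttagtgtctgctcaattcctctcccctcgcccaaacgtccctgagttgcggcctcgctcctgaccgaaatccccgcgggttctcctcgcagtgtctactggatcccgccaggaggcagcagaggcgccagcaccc
The ER stress response element, in its full consensus of the CCAAT box, a spacer and CCACG on both strands, was in no synthetase window, and in 0.0769% of all windows. The E-box CACGTG was in 1 cytosolic, 3 mitochondrial and 1 scaffold gene, and in 7.26% of all windows. HARS and HARS2 start 85 bases apart in opposite directions, so that their windows share 184 bases, and neither gene was called.

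Genes of the same pathways give the setting, from lists chosen with results of these data known. Of 30 genes of the amino acid response, 18 were tested, with 8 higher and 1 lower and a median log2 fold change of 0.902, where 18.5% of all tested genes were higher and 18.4% lower. ASNS, asparagine synthetase, had 388.5 and 334.4 CPM with methylparaben, against 34.9 and 45.0 CPM with ethanol, and rose by 3.18 ± 0.21 (edgeR, adjusted p = 2.74e-05). GDF15, a stress-induced cytokine, rose by 4.95 ± 0.42 and ATF3, a stress-induced transcription factor, by 3.34 ± 0.39 (edgeR, adjusted p = 7.54e-05 and 0.000320). With 4 and 5 reads in the ethanol libraries, GDF15 passed the read minimum only through methylparaben. The lower gene, named here after its value was seen, was the lipoprotein receptor gene VLDLR, which fell by 1.72 ± 0.34 (edgeR, adjusted p = 0.00405). Named beyond the 3 of smallest p, TRIB3, DDIT4, SLC3A2, CEBPB and SLC7A1 were also called higher. The remaining tested genes were not called, among them PSAT1 at -0.35 ± 0.18 and SLC7A11 at 0.21 ± 0.16. ATF4, named for its place in the pathway, had 3 and 3 reads with methylparaben and 1 and 1 with ethanol and was not tested. Of the reads of ASNS and ATF3, 64.7% and 74.2% were on retained-intron transcripts, and 99.7% of those of GDF15 on coding ones.

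Of 17 genes for the eIF2 kinases, eIF2, its exchange factor and its phosphatase regulators, 16 were annotated and 12 tested, with 5 higher and 0 lower by edgeR and by DESeq2 and 4 higher and 0 lower by limma voom, and 0 lower at an unadjusted p under 0.05. Over all tested genes 18.5% were higher and 18.4% lower. PPP1R15B, which directs the dephosphorylation of eIF2, had 1542.7 and 1450.7 CPM with methylparaben, against 410.0 and 486.1 CPM with ethanol, and rose by 1.74 ± 0.17 (edgeR, adjusted p = 0.000139). Its stress-induced counterpart PPP1R15A rose by 4.64 ± 0.66 (edgeR, adjusted p = 0.000755), with uneven treated libraries of 86.3 and 381.0 CPM, against 11.9 and 6.49 CPM with ethanol. EIF2S2, the beta subunit of eIF2, rose by 0.59 ± 0.17 (edgeR, adjusted p = 0.0196). Of the kinases named above, EIF2AK4, the gene of GCN2, was not called, at 1.11 ± 0.44 (edgeR, adjusted p = 0.0714). EIF2AK3, the gene of PERK, had too few reads for a test.

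Of 77 genes of tRNA processing, modification and export, 40 were tested, with 5 higher and 10 lower and a median log2 fold change of -0.217, where 18.5% of all tested genes were higher and 18.4% lower, so the list lay near the background. ADAT2, which deaminates the wobble adenosine of tRNA, had 19.6 and 20.9 CPM with methylparaben, against 69.3 and 79.6 CPM with ethanol, and fell by 1.88 ± 0.26 (edgeR, adjusted p = 0.000665). TRMU, which thiolates mitochondrial tRNA, fell by 3.11 ± 0.43 and ELAC1, a tRNA 3′ processing enzyme, by 2.20 ± 0.36 (edgeR, adjusted p = 0.000682 and 0.00166), the reads of TRMU lying to 97.0% on processed transcripts. Of 13 elongation factor genes 4 were tested. EEF2 rose by 2.35 ± 0.52 and EEF1A1 fell by 1.99 ± 0.65 (edgeR, adjusted p = 0.00724 and 0.0360). EEF1A1, which has many near-identical copies in the genome and is therefore uncertain, had 5 and 5 reads with methylparaben and 22 and 13 reads with ethanol. Of 7 genes close to the synthetase family, 3 were tested and edgeR called 0, with 0 at an unadjusted p under 0.05 and 0 called by DESeq2. They were EEF1E1, the complex scaffold also named AIMP3, at -0.43 ± 0.20, and the mitochondrial amidotransferase genes QRSL1 at 0.34 ± 0.18 and GATC at 0.30 ± 0.24.

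In the authors' deposited table, which gives an adjusted p per transcript from a comparison whose test is not named, 23 of the 125 synthetase transcripts with reads were under 0.05. These are 23 of 479 annotated synthetase transcripts, where 4471 of all 206601 annotated transcripts were under 0.05. Of the 18 transcripts called here, 17 were among the 23. Both comparisons use the same libraries, so this overlap is not an independent check. The exception was MARS-211, at an adjusted p of 0.0642 in the authors' deposited table and 0.0250 here.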

How the data were processed

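RNA from 4 libraries was compared, 2 per group. Per the labels' protocols, mRNA was captured from total RNA with poly(A) beads and sequenced from Illumina TruSeq libraries. The deposited counts are unnormalised reads for each annotated transcript. Which aligner and counting program made them is not given in the sources used. The authors also deposited FPKM per transcript and, per the file headers, log2 of FPKM plus 1. Per the file headers, their table further holds raw and adjusted p-values by transcript, from a test that is not named. The submitters' processing notes name GRCh38, DESeq2, limma and edgeR. All 479 synthetase transcripts lie at the same start and end in GENCODE release 29, from whose exons the bases held by a single transcript were derived. A gene read on few such bases is measured on part of its RNA.

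Counts were summed per Ensembl gene and, separately, kept per transcript. Features passing filterByExpr (minimum count 10, minimum total 15) were scaled by TMM and tested across all genes with edgeR 4.0.16 in R 4.3.3, by its quasi-likelihood F-test and Benjamini-Hochberg adjustment. The SE is the log2 fold change over the square root of F. Transcript usage was tested with diffSpliceDGE. The gene, transcript and usage fits of edgeR and the gene fits of DESeq2 and limma voom were tested on simulated counts. The other steps were not. Library totals of 2068486 to 3760982 limit the precision of low genes.

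Alternatives were other scalings and filters, DESeq2 1.42.0, limma 3.58.1 with voom or on log2(FPKM + 1) and log2(FPKM + 0.1), other sums of transcripts, the replicate number as a block, and fits without each library in turn. In such a fit the lone library of its group was assumed to vary like the other group. The members and lists were chosen with earlier results of these data known. All members are accounted for, up to 12 called transcripts and 3 called genes per other list are named by smallest p, and exceptions are stated. Promoter windows and reference sequence came from RefSeq (GRCh38.p14) and GRCh38.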

Additional observations from a re-analysis of the deposited data

How the results depend on the processing

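Over the alternatives, the 22 tested genes gave 330 values with the same direction and call, 22 that lost their call, 8 that gained one and 13 that changed sign. The count of 9 higher genes was 5 with retained-intron transcripts left out and 3 with protein-coding transcripts only. It was 3 (and 2 lower) with retained-intron transcripts only. Scaling the retained-intron sums with the factors of all genes, added after seeing the data, gave 5 (and 0 lower). That scaling set the median of all such genes at 0.954 in place of 0.0607. Each sum by type left fewer genes to test than the 8055 of all transcripts. The 2 lower genes became 1 with upper quartile scaling, 0 with limma on log2(FPKM + 1), 0 on log2(FPKM + 0.1) and 0 with the replicate block, which left 9 higher genes, and 2 in place of 4 lower transcripts. The replicate numbers are in the titles only, and libraries of the same number did not deviate together (r = -0.154 across genes), so the block is no better founded than the main comparison. The crossed pairing, added after seeing the data, gave 9 higher and 3 lower genes.

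As each library was left out, higher genes numbered 6 to 9 and lower genes 0 to 3, higher transcripts 10 to 15 and lower ones 1 to 4, and transcripts with higher usage 1 to 2 and with lower usage 0 to 1. Without ethanol replicate 1 the fewest genes and transcripts were higher.

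Sign changes were found only in genes that were not called in the main fit. With retained-intron transcripts only, LARS was at 0.33, NARS at -1.39 and HARS at -1.02, and that fit called 2 genes lower, NARS and HARS. With the factors of all genes, LARS, NARS and HARS were at 1.18, -0.54 and -0.18 in the same order, and 0 genes were lower. With limma on log2(FPKM + 1) and log2(FPKM + 0.1), CARS2 was at -0.27 and -0.38 and HARS at -0.05 and -0.06. Leaving out each library gave -1.44 to 0.10 for AARS2, -0.05 to 0.38 for NARS and -0.42 to 1.88 for CARS2. Library size only moved the median of all genes to -0.0764, from 0.0288. The cause was not tested in any of these. Genes under about 10 reads per library, and those without single-transcript bases on coding transcripts, cannot be judged at this depth.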
